A study of Gallus gallus with 5 samples.

Results

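Chromosome Z features are all entries of the 5 deposited count files that the authors placed on chromosome Z of the chicken, each a RefSeq transcript with a start and an end on the build galGal4. Of the 17036 entries in each file, 866 lay on Z. Entries that were the same measurement under another identifier were reduced to 1, which left 813 features on Z of 16143 in all. They run from position 2595 to position 82090781, and 516 of them have a gene symbol. The chromosome alone chose them, so their levels and changes were not used in the choice.

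Birds carry 2 kinds of sex chromosome: males have a pair of Z chromosomes and females have a Z and a W, which is small and holds few genes. Genes of the W are mostly survivors of old Z and W gene pairs, whose partner remains on Z. Birds lack a chromosome-wide mechanism that equalises Z output between the sexes, and DMRT1, a transcription factor on Z, acts in a dose-dependent way in the making of a testis. Condensin I is a ring-shaped complex that compacts chromosomes, CAP-H is its kleisin subunit, and SMC2, a core subunit, is itself encoded on Z.

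RNA came from cultured DT40 cells, which descend from a chicken lymphoma of B cells. Cells of both groups were CAP-H KO cells, so the altered CAP-H gene was shared by treated and untreated cells. The 2 libraries labelled CAP-H off (replicates 1 and 3) come from a 36 h exposure to 100 ng/ml doxycycline. The CAP-H on group has 3 libraries (replicates 1, 2 and 3), made from cells without doxycycline at the same time. The labels do not say how many clones were used or whether replicates were separate cultures. The p-values therefore set the difference between groups against the scatter of these libraries, a scatter that may be technical. No cells with an unaltered CAP-H gene were given doxycycline among these samples, so loss of CAP-H and exposure to the drug cannot be told apart. No entry matched NCAPH, the gene of CAP-H, so the labels could not be checked on it.

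Total counts per library ranged from 12199522 to 22533003. Of 10 B-cell marker genes, 9 had a feature, none of these was listed at the lowest value in all libraries, and their summed level was 972 to 1013 CPM (counts scaled to a common library size) in CAP-H off libraries and 1212 to 1262 CPM in CAP-H on libraries. The 5 macrophage and granulocyte markers with a feature summed to 34.9 CPM in each CAP-H off library and 77.1 to 82.5 CPM in CAP-H on libraries, with CD14 at the lowest value throughout. The 5 T-cell markers summed to 103.6 to 104.5 CPM in CAP-H off libraries and 88.3 to 98.9 CPM in CAP-H on libraries, nearly all of it CD3D. The 2 erythroid markers stayed under 0.4 CPM in every library, and the 3 fibroblast markers summed to 31.9 to 34.4 CPM in CAP-H off libraries and 30.5 to 35.5 CPM in CAP-H on libraries, with DCN at the lowest value. Their part in the results on Z was not tested. In bulk RNA of this kind, fewer cells of a type and less RNA per cell cannot be told apart.

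Chromosome Z held long features. Their median span, the distance between start and end with introns included, was 16.2 kb, against 11.2 kb for 15239 autosomal features (chromosomes 1 to 28 and 32), 12.98 kb for chromosome 4 and 12.1 kb for chromosome 5, which are large chromosomes like Z. Of the Z features, 77 (9.47%) spanned at least 100 kb, against 5.89% of autosomal features. The longest was CELF4, which encodes an RNA-binding protein known from neurons, at 695.7 kb. It stood at no more than 0.661 CPM in any library and was not tested. The next longest were the unnamed XM_003642985.1 at 384.7 kb and KDM4C, a histone lysine demethylase, at 303.8 kb. Neither passed the test (Benjamini-Hochberg adjusted p = 0.10 and 0.46, edgeR).

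Fewer Z features than autosomal features held reads. The smallest count in the files is 1, so a feature at 1 was taken to hold no read. On Z, 175 features (21.5%) stood at 1 in all 5 libraries, against 16.8% of autosomal features and 19.9% of those on chromosome 4. A filter on low counts kept 477 Z features (58.7%) and 9596 autosomal features (63.0%), of 10079 in all, and chromosome 4, with 59.3% kept, was close to Z. All counts of changed features below refer to the 477.

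Level per length was lower on Z than on any other chromosome with at least 20 tested features, of which there were 29. The median level of the tested Z features was 1.32 and 1.18 CPM per kb of span in the CAP-H off libraries, against 1.27, 1.28 and 1.32 CPM per kb in the CAP-H on libraries. The 2 groups overlap on Z. For autosomal features the same median was 2.46 CPM per kb in each CAP-H off library and 2.55 to 2.57 CPM per kb in CAP-H on libraries. All 5 libraries thus placed Z below the autosomes. The ratio of the Z median to the autosomal median was 0.507 ± 0.041 in CAP-H off libraries (SD, n = 2) and 0.505 ± 0.011 in CAP-H on libraries (SD, n = 3), a difference smaller than the spread between libraries. With overlapping features left out, the ratio averaged 0.532 in CAP-H off and 0.474 in CAP-H on libraries. Against chromosome 4 the ratio was 0.618 ± 0.032 in CAP-H off and 0.600 ± 0.014 in CAP-H on libraries, and against chromosome 5 it was 0.613 ± 0.048 in CAP-H off and 0.621 ± 0.011 in CAP-H on libraries.

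**Figure D1:**
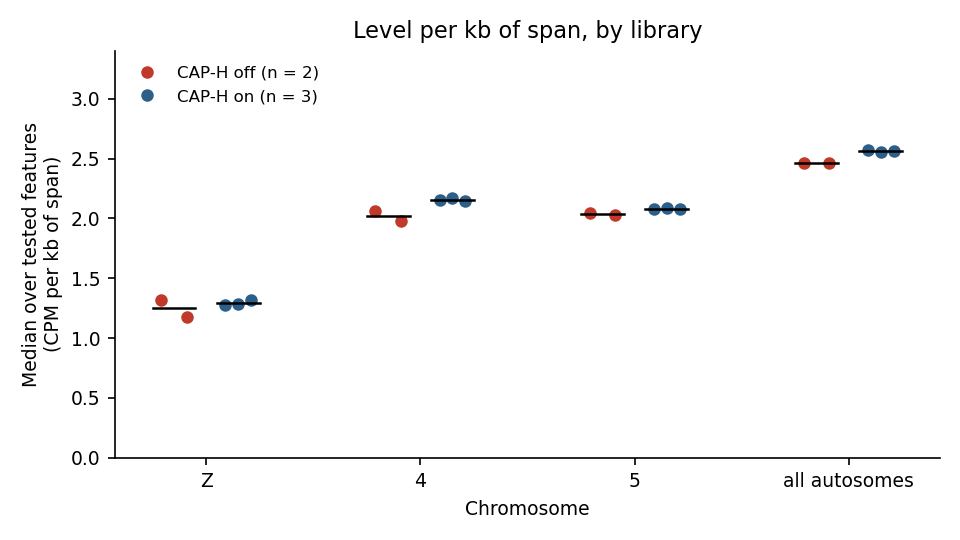
Median level of tested features (CPM per kb of span, linear axis from 0) for chromosome Z, chromosomes 4 and 5 and all autosomes. Each point is a library, CAP-H off (n = 2) left of CAP-H on (n = 3), and black lines are group means. Z points lie between 1.18 and 1.32 in both groups, below every point of the other chromosomes.

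Z was also lower among features of like span. In features under 10 kb the Z median was 0.605 of the autosomal median in CAP-H off libraries and 0.610 in CAP-H on libraries. It was 0.587 in CAP-H off and 0.544 in CAP-H on libraries for features of 10 to 50 kb, and 0.607 in CAP-H off and 0.695 in CAP-H on libraries for those over 50 kb. All 6 ratios lie below 1, and the 2 groups differ most in the long class. Z was also lower per kb than chromosomes 4 and 5 together in each class, but least so over 50 kb. There Z had 0.294 CPM per kb in CAP-H off and 0.379 in CAP-H on libraries, against 0.393 and 0.438 on chromosomes 4 and 5. In plain CPM these long features were close, unlike the shorter classes. Z had 34.5 CPM in CAP-H off and 37.2 CPM in CAP-H on libraries, against 36.1 and 38.3 CPM on chromosomes 4 and 5. Without division by span, the median tested Z feature stood at 26.8 CPM in CAP-H off and 25.01 CPM in CAP-H on libraries, against 38.0 CPM for autosomal features in either group. As log2(CPM + 2), the Z median was 4.87 to 4.88 in CAP-H off and 4.72 to 4.79 in CAP-H on libraries, which do not overlap, and the autosomal median was 5.32 in each CAP-H off library and 5.31 to 5.32 in CAP-H on libraries.

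The share of all counts that fell on Z was 2.70% and 2.65% in CAP-H off libraries, against 2.89%, 2.89% and 2.92% in CAP-H on libraries. The 2 groups do not overlap, and every CAP-H off library was lower. The chromosome 4 share went the other way, at 7.251% and 7.299% in CAP-H off and 7.132% to 7.174% in CAP-H on libraries. The chromosome 5 share overlapped, at 6.079% and 5.275% in CAP-H off and 5.829% to 5.87% in CAP-H on libraries. The Z share was lower where a few very abundant features elsewhere took more of the counts. Whether the 2 are linked was not tested. The 10 features with the most counts in each library, none of them on Z, took 11.3% and 12.1% of the counts in CAP-H off libraries and 6.46% to 6.63% in CAP-H on libraries. Outside the 10 features with the most counts over all libraries together, the Z share was 3.012% to 3.045% in CAP-H off and 3.071% to 3.104% in CAP-H on libraries. The summed Z level after TMM scaling went the other way, at 29146 and 28621 CPM in CAP-H off libraries, against 27057, 27700 and 27954 CPM in CAP-H on libraries. On chromosome 4 this sum averaged 78520 CPM in CAP-H off and 68060 CPM in CAP-H on libraries. On chromosome 5 it averaged 61260 CPM in CAP-H off and 55730 CPM in CAP-H on libraries, so a higher sum was not particular to Z. Such a sum is in effect the share of counts divided by the TMM factor of the library. The factors were 0.928 and 0.927 in CAP-H off and 1.04 to 1.07 in CAP-H on libraries. The scaling alone thus raises sums over many features in CAP-H off libraries, and the higher Z sum does not show a greater Z output. An exact permutation test of 2 libraries against 3 cannot reach a two-sided p below 0.1, and none is given.

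The Z output was more concentrated in a few features in CAP-H off libraries, as were the counts of whole libraries described above. The measure was not taken for other single chromosomes. The 5 Z features with the most counts in a library held 19.6% and 19.5% of its Z counts in CAP-H off libraries, against 12.03%, 12.3% and 12.31% in CAP-H on libraries. By mean level the leading Z features were the ribosomal protein genes RPS6, RPL37 and RPS23, the sterol synthesis gene HMGCS1 and the unnamed XM_424454.3. Each of these rose.

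Of the 477 tested Z features, 91 (19.1%) rose and 118 (24.7%) fell in CAP-H off libraries at an adjusted p under 0.05 (quasi-likelihood test of edgeR, Benjamini-Hochberg adjustment over all 10079 features), and 268 were not called. Over all features 22.6% rose and 23.7% fell, 46.3% in all, so the Z shares lie near the background. Chromosome 4 had 22.2% of features higher and 24.2% lower, and chromosome 5 had 23.1% higher and 23.4% lower. The median log2 fold change of Z features was -0.03, with lower and upper quartiles of -0.30 and 0.26, and that of autosomal features was 0.00. Z was the 7th lowest of the 29 chromosomes in this median. At least a 2-fold rise was called for 18 Z features (3.77%) and at least a 2-fold fall for 21 (4.40%), against 3.49% and 2.69% of all features. The 2-fold falls include IFNA3 and 3 short unnamed features of the interferon gene cluster, which may share reads. Each of these lost its call in at least 3 of the fits that left out a library. The CPM of the 2 groups did not overlap in 319 Z features (66.9%), against 64.9% of all features.

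These directions are relative to the typical feature. Scaled by library size alone, the median of all features moved to -0.18, and 58 Z features were called higher and 211 lower. No library decided the sign of a called Z feature: 142 of the 209 stayed called in each of the 5 fits that left out a library, and 67 lost the call in at least 1 of them.

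Features of different span moved differently, on Z as on the autosomes. Among the 150 tested Z features under 10 kb, 42 rose and 26 (17.3%) fell, with a median change of 0.10 on the log2 scale. Among the 219 of 10 to 50 kb, 40 (18.3%) rose and 46 (21.0%) fell, with a median of 0.03. Among the 108 over 50 kb, 9 (8.33%) rose and 46 (42.6%) fell, with a median of -0.21. Short Z features therefore rose more often than they fell, and long ones fell more often than they rose. Level differed between the classes as well. The median Z feature in CAP-H off libraries stood at 15.6 CPM under 10 kb and 34.5 CPM over 50 kb. A change is harder to call at a low level, so the classes are compared in direction, not in how often they changed. Of autosomal features, 31.6% rose and 14.1% fell under 10 kb, 17.5% rose and 27.9% fell from 10 to 50 kb, and 13.3% rose and 38.0% fell over 50 kb. Scaled by library size alone, more Z features fell than rose in every class. There were 31 higher and 53 lower under 10 kb and 5 higher and 73 lower over 50 kb, and the order of the class medians was the same. Without CAP-H off replicate 3 the Z median was 0.007 under 10 kb and 0.033 from 10 to 50 kb, so these 2 classes changed places. Over 50 kb it was -0.23 in that fit.

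**Figure D2:**
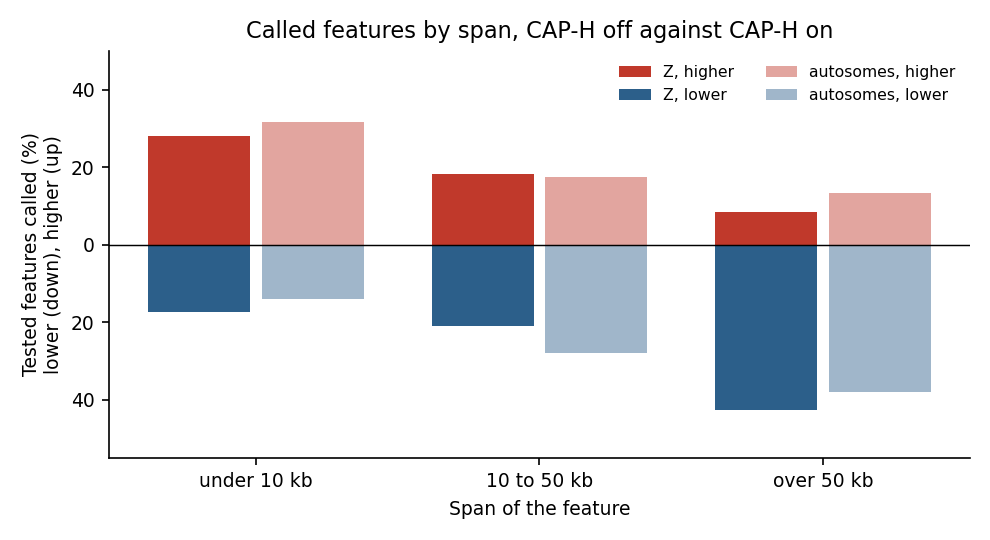
Share of tested features called higher (bars up) and lower (bars down) in CAP-H off against CAP-H on libraries, in percent, by span, with Z left of autosomes in each class. The share called lower on Z is 17.3% under 10 kb and 42.6% over 50 kb, beside 14.1% and 38.0% on autosomes. Level also differs between the classes.

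Level classes showed a related pattern. Of the 67 tested Z features over 100 CPM, 18 (26.9%) rose and 32 (47.8%) fell, against 27.4% and 39.6% of autosomal features of that level. Of the 119 under 10 CPM, 16 rose and 16 fell. Fewer features of low level can pass a test at this depth, so the classes cannot be compared in how often they changed, only in direction.

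Along the chromosome, changes in both directions were spread over its whole length. In windows of 5 Mb, 15 of 17 windows had at least 20 tested features, and 10 of these 15 had a median change below 0. More features fell than rose in 10 windows, more rose than fell in 4, and 1 was even. The window at 5 to 10 Mb was the densest, with 62 tested features, of which 12 rose and 19 fell, and its median was -0.30. That window holds an interferon gene cluster whose features share reads, described below. The window at 35 to 40 Mb had no rise called and 7 falls among 23 tested features, with a median of -0.19. At the far end, the window from 80 Mb had 8 rises and 3 falls among 20 tested features, with a median of 0.17. Over all features 22.6% rose and 23.7% fell. The windows described were picked from the 17 and hold few features each. Whether any of them differs from the rest was not tested.

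**Figure D3:**
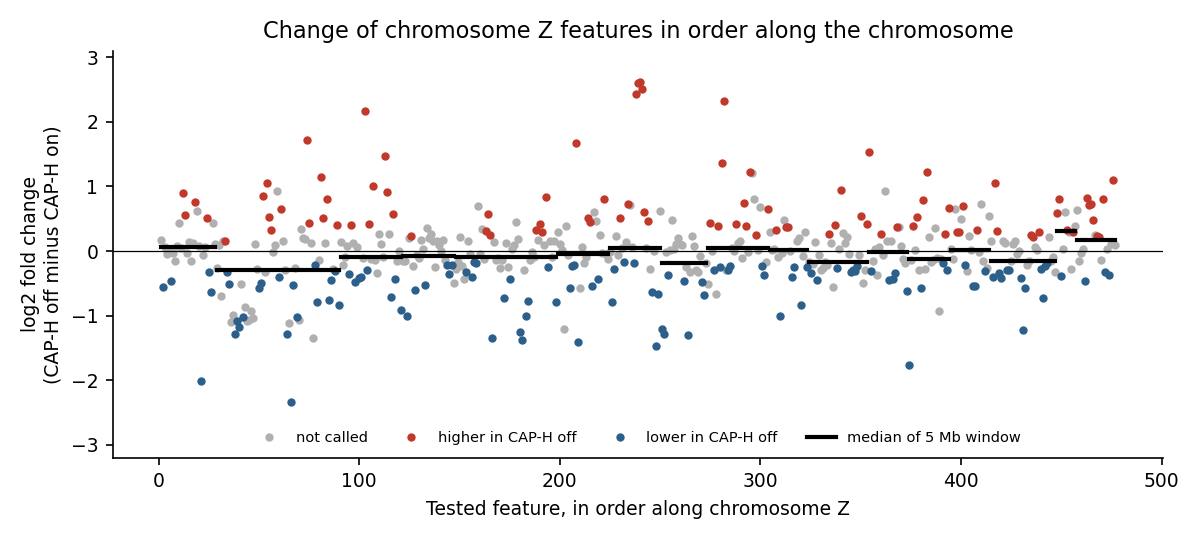
Log2 fold change (CAP-H off minus CAP-H on) of the 477 tested Z features in their order along the chromosome. Red points rose, blue points fell, grey points were not called, and black bars are medians of 5 Mb windows. Most window medians lie within 0.3 of 0, and 4 neighbouring features stand above 2.4.

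There were 11 runs of at least 3 tested neighbours called in the same direction, 4 of them higher and 7 lower. With 19.1% of tested Z features called higher and 24.7% lower, neighbours can share a direction without being linked. Runs were not counted on other chromosomes. How often such runs arise was not tested, and 4 of the runs hold features that overlap another feature. The longest run, of 5 features, lies between positions 34152075 and 34299522 and was chosen for description after its values were seen. It holds the 4 largest rises of the chromosome, all in unnamed features. XM_003642998.1 (34167458 to 34172908) stood at 174 and 136 CPM in CAP-H off libraries, against 23.4, 26.4 and 27.3 CPM in CAP-H on libraries. Its groups lie far apart, with a log2 change of 2.60 (SE 0.09, adjusted p = 8.6e-12).

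XM_003642999.1 (34182542 to 34196328) stood at 105 and 85.6 CPM in CAP-H off libraries and 15.02, 15.43 and 16.6 CPM in CAP-H on libraries, a log2 change of 2.62 (SE 0.09, adjusted p = 9.4e-12). XM_003643017.1 (34262481 to 34267923) had 116 and 98.9 CPM in CAP-H off libraries and 18.2, 19.5 and 19.2 CPM in CAP-H on libraries, a change of 2.51 (SE 0.08, adjusted p = 3.3e-12). XM_003642997.1 (34152075 to 34165859) had 81.5 and 64.8 CPM in CAP-H off libraries and 12.1, 14.1 and 15.03 CPM in CAP-H on libraries, a change of 2.44 (SE 0.11, adjusted p = 1.1e-10). In all 4 features every CAP-H off library was above every CAP-H on library, and replicate 1 was the higher of the CAP-H off libraries. The features pair by span, at 13.785 and 13.787 kb and at 5.451 and 5.443 kb, so near-identical copies may share reads and their single values are uncertain. The authors' deposited table gives them log2 fold changes of 2.36, 2.52, 2.51 and 2.43 in order of position, with the direction of its comparison not stated.

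The rise did not extend evenly past these features. RFKL (34293202 to 34299522), named after riboflavin kinase, closes the run with 213 and 208 CPM in CAP-H off libraries, against 140, 138 and 136 CPM in CAP-H on libraries, a change of 0.61 (SE 0.06, adjusted p = 4.6e-07). Beyond it, PIP5K1B, a lipid kinase, had a change of 0.05 (adjusted p = 0.74). On the other side, FOCAD had a change of -0.19 (adjusted p = 0.038), a call that was lost in all 5 fits without a library. HACD4, an enzyme of fatty acid elongation between FOCAD and the run, had 5 and 11 counts in CAP-H off libraries against 1, 2 and 2 in CAP-H on libraries, and was not tested.

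**Figure D4:**
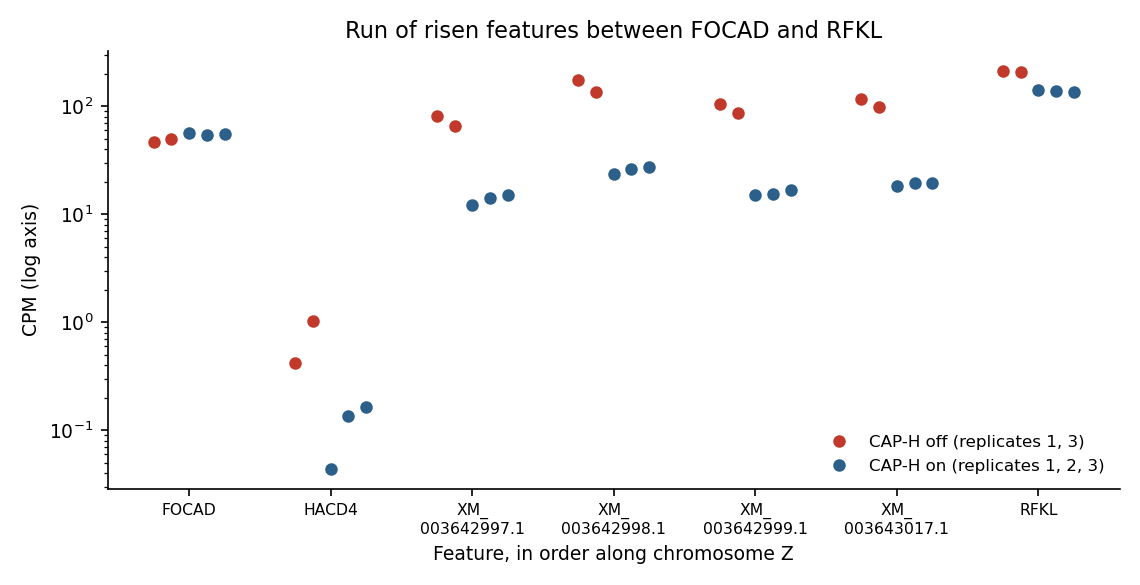
Level (CPM, log axis) of the run of risen features and its neighbours, in order along chromosome Z. Points are libraries, CAP-H off (red, replicates 1 and 3) left of CAP-H on (blue, replicates 1, 2 and 3). The 4 unnamed features stand at 64.8 to 174 CPM in CAP-H off and 12.1 to 27.3 CPM in CAP-H on libraries, while FOCAD differs little.

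Among Z genes with a symbol, the 3 listed genes of cytosolic ribosomal proteins rose, as did some of the mitochondrial ribosome. RPL37, a protein of the large ribosomal subunit, stood at 1080 and 993 CPM in CAP-H off libraries, against 492, 533 and 519 CPM in CAP-H on libraries. The groups lie well apart, with a log2 change of 1.01 (SE 0.05, adjusted p = 5.5e-10). RPS6, a protein of the small subunit and the most abundant Z feature, had 1914 and 1979 CPM in CAP-H off libraries against 1143, 1197 and 1203 CPM in CAP-H on libraries, a change of 0.72 (SE 0.04, adjusted p = 6.0e-10). RPS23, which lies at the decoding centre of the small subunit, had 872 and 856 CPM in CAP-H off libraries against 483, 508 and 512 CPM in CAP-H on libraries, a change of 0.79 (SE 0.05, adjusted p = 4.5e-09). In each of the 3 the replicates of a group lay close together. Per length RPS23, RPS6 and RPL37 were also among the 5 highest Z genes, at 472, 437 and 394 CPM per kb in CAP-H off libraries and 274, 265 and 196 CPM per kb in CAP-H on libraries. The other 2 of these 5 are microRNA genes inside longer genes, MIR101-1 in RCL1 and MIR2131 in NCBP1, so their reads are also counted for the host.

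The list of ribosome and translation genes had 12 members on Z, all tested, of which 6 rose and 2 fell, beside 22.6% of all features that rose and 23.7% that fell. The median log2 fold change of the list was 0.21, and that over all features was 0.00, which holds for each list below. The lists were chosen with earlier results of these data known. Their counts and medians therefore cannot show that a list stands out from all features. The other rises were the mitoribosomal gene MRPL50 (0.66, adjusted p = 0.00022), MRPS36, mitoribosomal by name (0.58, adjusted p = 0.0064), and the chaperone gene DNAJA1 (0.31, adjusted p = 0.0005). MRPL17, another mitoribosomal gene outside the list, rose to 118 ± 5.31 CPM in CAP-H off libraries, against 68.1 ± 9.51 CPM in CAP-H on libraries (SD, n = 2 and 3), a change of 0.81 (adjusted p = 1.2e-06). The 2 falls were both tRNA synthetases, which load amino acids onto tRNA. TARS, for threonine, had 140 and 131 CPM in CAP-H off libraries against 240, 240 and 247 CPM in CAP-H on libraries, a change of -0.84 (SE 0.07, adjusted p = 4.7e-08). NARS, for asparagine, fell by 0.56 (adjusted p = 1.6e-06). The mitoribosomal genes MRPS27 (0.11, adjusted p = 0.11) and MRPS30 (-0.15, adjusted p = 0.20) were not called. Without CAP-H on replicate 1 the count of falls was 4, and scaled by library size alone the list had 5 rises and 5 falls.

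Of 17 listed genes of sterol, sugar and mitochondrial metabolism, 11 were tested, 7 rose and 1 fell, with a median log2 fold change of 0.29, where 22.6% of all features rose. With library size alone the list had 5 rises and 3 falls and a median of 0.11. HMGCS1 (13514300 to 13524154), which makes HMG-CoA for sterol synthesis, had 796 and 746 CPM in CAP-H off libraries, against 398, 418 and 409 CPM in CAP-H on libraries. Its groups do not overlap, and the change was 0.92 (SE 0.05, adjusted p = 1.8e-09). NIM1K (13504775 to 13512912), a kinase gene next to HMGCS1, had the largest rise among symbol-bearing Z genes that averaged 5 CPM or more with groups apart, at 14.9 and 13.8 CPM in CAP-H off libraries against 5.61, 5.12 and 4.71 CPM in CAP-H on libraries (1.47, SE 0.17, adjusted p = 3.0e-06).

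Another pair of neighbours lies near 41.3 Mb. FBP2, a fructose bisphosphatase of gluconeogenesis, had 6.92 and 5.51 CPM in CAP-H off libraries against 1.24, 1.23 and 1.24 CPM in CAP-H on libraries, a change of 2.33 (SE 0.28, adjusted p = 5.2e-06). CTSV (41267478 to 41272898), a lysosomal cysteine protease, had 9.02 and 10.1 CPM in CAP-H off libraries against 2.96, 5.67 and 2.56 CPM in CAP-H on libraries, a change of 1.36 (SE 0.27, adjusted p = 0.00063). In both genes the CAP-H off libraries lie above all CAP-H on libraries, though replicate 2 of CAP-H on is high for CTSV. The respiratory chain genes COX7C (0.53, adjusted p = 1.5e-06) and ATP5I, a subunit of the ATP synthase (0.94, adjusted p = 8.4e-09), rose as well. So did TOMM5, of the mitochondrial import pore (0.82, adjusted p = 2.8e-07). NUDT2, which cleaves diadenosine tetraphosphate (0.86, adjusted p = 0.0025), and GRHPR, a glyoxylate reductase (0.81, adjusted p = 0.0055), rose too. NDUFS4, an accessory subunit of complex I (0.24, adjusted p = 0.044), was not called once CAP-H off replicate 1 was left out, at 0.08, and in 2 other fits without a library. The 1 fall of the list was ATP5F1AZ, the Z copy of an ATP synthase subunit gene (-0.33, adjusted p = 0.0060).

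The 10 largest falls with a symbol and at least 5 CPM ranged from -0.79 to -1.34 on the log2 scale. PSAT1, the aminotransferase of serine synthesis, had 28.5 and 28.6 CPM in CAP-H off libraries, against 66.1, 69.7 and 75.9 CPM in CAP-H on libraries. All CAP-H off values lie below all CAP-H on values, with a change of -1.30 (SE 0.08, adjusted p = 3.7e-09). SERINC5, a membrane protein named after serine incorporation, had 11.2 and 8.60 CPM in CAP-H off libraries against 24.96, 27.5 and 22.9 CPM in CAP-H on libraries, a change of -1.34 (SE 0.15, adjusted p = 2.0e-06). TNFAIP8, a regulator of cell death, had 11.5 and 8.50 CPM in CAP-H off libraries against 22.8, 24.5 and 22.6 CPM in CAP-H on libraries, a change of -1.22 (SE 0.14, adjusted p = 4.8e-06). In none of these 3 genes do the groups overlap. The same rule also named F2RL1, CD72L1 and TARS, described with their groups, and PARP8 (-0.91), FBXL17, an F-box protein of ubiquitin ligases (-0.83), TLN1 (-0.79) and TTC39B (-0.79), the last 4 with adjusted p-values of 3.0e-05, 1.3e-06, 3.8e-08 and 1.9e-05 in that order.

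Receptor genes of the thrombin family, which lie side by side near 23.3 Mb, fell together. F2RL1 (23272290 to 23281492) had 9.53 and 11.1 CPM in CAP-H off libraries against 20.1, 31.0 and 23.04 CPM in CAP-H on libraries, a change of -1.25 (SE 0.18, adjusted p = 4.0e-05). F2R (23306376 to 23314106), the thrombin receptor, had 2.19 and 1.78 CPM in CAP-H off libraries against 4.33, 5.46 and 5.95 CPM in CAP-H on libraries, a change of -1.37 (SE 0.29, adjusted p = 0.00097). F2RL2 (23350601 to 23353711) had a change of -0.77 (adjusted p = 0.010), which missed the threshold once CAP-H off replicate 1 was left out (adjusted p = 0.072). F2RL2 lies inside XR_026642.2 (23320468 to 23417024), a more abundant transcript at 129 ± 1.13 CPM in CAP-H off and 260 ± 0.80 CPM in CAP-H on libraries (SD, n = 2 and 3), so its reads cannot be separated from those of the transcript. F2R and F2RL2 were named after their values were seen.

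Of 17 listed B-cell and immune genes on Z, 10 were tested, 2 rose and 5 fell, with a median log2 fold change of -0.45, beside 22.6% of all features higher and 23.7% lower. CD72, a surface receptor that restrains B-cell receptor signalling, had 65.3 and 73.9 CPM in CAP-H off libraries, against 95.7, 101 and 104 CPM in CAP-H on libraries. Its groups do not overlap, with a change of -0.53 (SE 0.07, adjusted p = 7.2e-06). The nearby CD72L1 fell by 1.01 (adjusted p = 0.00033), and CD72L2, between them, had a change of -0.26 (adjusted p = 0.24), all 3 possibly sharing reads as related copies. PAX5, which maintains B-cell identity, fell by 0.37 (adjusted p = 0.0036) to 56.7 ± 5.48 CPM in CAP-H off libraries, against 72.7 ± 8.74 CPM in CAP-H on libraries (SD, n = 2 and 3). SYK, the kinase that starts signalling below the receptor, went the other way at 129 ± 2.81 CPM in CAP-H off and 109 ± 4.95 CPM in CAP-H on libraries (0.25, SE 0.05, adjusted p = 0.0014), and scaled by library size alone it was not called (0.07, adjusted p = 0.31). JAK2, a cytokine receptor kinase, fell by 0.53 (adjusted p = 0.0049), but not past the threshold without CAP-H off replicate 3 (-0.33, adjusted p = 0.071). Without that library the list had 1 rise and 3 falls. LIFR, a cytokine receptor, was the other rise (2.16, adjusted p = 0.0066) at under 1 CPM, and it was not called when either CAP-H off library was left out.

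In the interferon gene cluster, 1 long transcript and the short features inside it share reads. XM_003642921.1 (7217636 to 7334121), a transcript of 116.5 kb, had 90.6 and 85.0 CPM in CAP-H off libraries, against 135, 121 and 117 CPM in CAP-H on libraries, and fell by 0.51 (SE 0.07, adjusted p = 1.1e-05). It contains 12 short features, among them the interferon genes IFNW1 and IFNA3, whose reads count for it too. The interferon genes are close copies of each other, and each short feature holds few reads. IFNA3, an antiviral cytokine gene, had 0.928 and 0.747 CPM in CAP-H off libraries against 1.72, 1.78 and 1.65 CPM in CAP-H on libraries (-1.02, adjusted p = 0.05), and it lost its call in all 5 fits without a library. IFNW1 had a change of -1.10 (adjusted p = 0.10).

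Genes of chromosome structure on Z showed no common direction. SMC2, the condensin core subunit, stood at 465 and 443 CPM in CAP-H off libraries, against 444, 453 and 446 CPM in CAP-H on libraries. Its groups overlap and the change was 0.02 (SE 0.06, adjusted p = 0.80). SMC5 (34813015 to 34868057), of the SMC5/6 complex that acts in DNA repair, fell to 37.4 and 37.2 CPM in CAP-H off libraries, against 61.3, 59.7 and 56.1 CPM in CAP-H on libraries (-0.67, SE 0.07, adjusted p = 2.5e-06), and the short XM_003643018.1 lies over its start. Scaled by library size alone both of these genes were called lower.

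Of 12 listed mitosis and cell cycle genes, 10 were tested, 4 rose and 2 fell, beside 22.6% and 23.7% of all features, with a median change of 0.23. SKP2, which marks cell cycle inhibitors for degradation, had 242 and 223 CPM in CAP-H off libraries against 173, 171 and 186 CPM in CAP-H on libraries (0.40, SE 0.07, adjusted p = 0.00018). CENPH, a kinetochore protein, was higher by 0.32 (adjusted p = 0.0019), and scaled by library size alone it was not called (0.14, adjusted p = 0.12). KIF24, a kinesin of centrioles, fell by 0.50 (adjusted p = 0.0098). The other calls were HAUS1, CDK7 and KIF2A, and each was lost when 1 or more of the libraries were left out in turn. Without CAP-H off replicate 1, KIF24 had a change of -0.34 (adjusted p = 0.12) and the list had 3 rises and 0 falls. Scaled by library size alone the list had 1 rise and 3 falls, so its direction depends on the scaling.

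Of 11 genes listed under DNA replication and repair, all tested, 2 rose and 3 fell, near the 22.6% and 23.7% of all features, with a median of -0.13. FANCG, of the Fanconi anaemia core complex, had 47.4 and 43.3 CPM in CAP-H off libraries against 30.2, 30.0 and 25.9 CPM in CAP-H on libraries, a change of 0.65 (SE 0.09, adjusted p = 3.0e-05). FANCC, a partner in that complex, fell by 0.29 (adjusted p = 0.016), a call that needed CAP-H off replicate 1. PARP8, a mono-ADP-ribosyltransferase, had 11.05 and 12.5 CPM in CAP-H off libraries against 22.4, 22.1 and 21.5 CPM in CAP-H on libraries. MTAP, of methionine salvage, fell by 0.39 (adjusted p = 0.0025). The counts and median of the list are therefore not those of replication and repair genes alone. The number of rises was 1 without CAP-H off replicate 1 or CAP-H on replicate 1 and 3 without CAP-H off replicate 3, and 1 rise and 6 falls were called with library size alone.

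Of 17 chromatin and transcription regulators, 15 were tested, 1 rose and 3 fell, beside 22.6% and 23.7% of all features, with a median of 0.13, so most members did not pass the test. CHD1, a chromatin remodeller, fell by 0.34 (SE 0.06, adjusted p = 0.00014) to 98.2 and 89.6 CPM in CAP-H off libraries, against 121, 116 and 118 CPM in CAP-H on libraries. PSIP1, which tethers proteins to active chromatin, fell by 0.28 (adjusted p = 0.0012). The rise was GADD45G, a stress-induced regulator (1.22, adjusted p = 0.0099), which CAP-H off replicate 3 decided: leaving it out, the gene was not called (adjusted p = 0.11), and the list had 0 rises and 4 falls. The rises were 2 without CAP-H off replicate 1 or CAP-H on replicate 3, and the median was -0.06 with library size alone.

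Most cell surface and matrix genes of Z held too few reads to be tested: 4 of 11 were tested, 0 rose and 2 fell, beside 22.6% and 23.7% of all features, with a median of -0.47. TLN1, talin, which links integrins to actin, had 283 and 311 CPM in CAP-H off libraries against 505, 519 and 521 CPM in CAP-H on libraries. ITGA2, an integrin chain that binds collagen, had 3.46 and 2.24 CPM in CAP-H off libraries against 5.57, 6.28 and 5.53 CPM in CAP-H on libraries (-1.01, SE 0.25, adjusted p = 0.0040). Leaving out CAP-H off replicate 3 ended its call (adjusted p = 0.058), which left 1 fall in the list. The lists of genes on Z were drawn up for description with earlier results of these data known, and no list was tested as a whole.

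Almost no reads fell on the sex-determining region. DMRT1 (25808638 to 25810968) and its neighbour DMRT2 stood at 1, the lowest value in the files, in all 5 libraries, and DMRT3 at 1 and 1 counts in CAP-H off and 2, 1 and 1 counts in CAP-H on libraries. None of the 5 sex determination genes listed on Z was tested. Within 0.5 Mb of DMRT1 lay 12 features, itself included, of which 4 were tested. The unnamed XM_424926.3 (25582285 to 25665212) fell by 0.58 to 381 and 386 CPM in CAP-H off libraries, against 577, 564 and 575 CPM in CAP-H on libraries (SE 0.05, adjusted p = 3.5e-07). SMARCA2, a remodelling ATPase at the other side, fell by 0.23 (adjusted p = 0.0062). CBWD1 had a change of -0.06 (adjusted p = 0.62) and XM_003642916.1 had 0.39 (adjusted p = 0.63). An abundant transcript, XM_424926.3, thus lay beside genes taken to hold no read.

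Of 15 listed Z genes with a known copy on W, 13 were tested, 1 rose and 6 fell, beside 22.6% higher and 23.7% lower over all features and 19.1% and 24.7% over Z, with a median of -0.13 on the log2 scale, and 10 fell with library size alone. GOLPH3, a Golgi protein, had 47.1 and 47.6 CPM in CAP-H off libraries, against 62.8, 65.4 and 66.7 CPM in CAP-H on libraries, a change of -0.45 (SE 0.07, adjusted p = 4.7e-05). HNRNPK, an RNA-binding protein, fell by 0.48 (adjusted p = 0.00011), and VCP, an ATPase that extracts proteins for degradation, fell by 0.40 (adjusted p = 0.00014). HNRNPK contains the microRNA gene MIR7-1. SUB1, a transcription coactivator, was the rise (0.41, adjusted p = 0.00061). Reads of a Z gene and its W copy may be assigned to either, so single values are uncertain.

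Each of the 7 features on W held reads in at least 1 group. Their summed level was 209 and 224 CPM in CAP-H off libraries, against 341, 312 and 301 CPM in CAP-H on libraries. Both CAP-H off libraries lie below all CAP-H on libraries, whereas the summed levels of Z and of chromosomes 4 and 5 were higher in CAP-H off libraries. Of the 6 tested W features 4 fell and 0 rose by edgeR, and 4 had an unadjusted p under 0.05, beside 23.7% of all features that fell. All 6 are long, from 64.4 to 386.4 kb. Among autosomal features over 50 kb, 38.0% fell and 13.3% rose, so frequent falls are not particular to W. The largest fall was in XM_428553.3 (618747 to 719184), which had 9.11 and 7.47 CPM in CAP-H off libraries, against 37.7, 32.4 and 27.7 CPM in CAP-H on libraries (-1.98, SE 0.16, adjusted p = 5.5e-08). LOC769000 (346553 to 410960) had 13.6 and 10.7 CPM in CAP-H off libraries, against 43.1, 40.2 and 39.1 CPM in CAP-H on libraries (-1.75, SE 0.12, adjusted p = 8.9e-09). These 2 features stand out from the others on W, none of which changed as much as 2-fold among those tested.

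XM_003642896.1 (809119 to 1195553) had 75.5 and 90.3 CPM in CAP-H off libraries, against 135.6, 122.9 and 114.5 CPM in CAP-H on libraries (-0.59, SE 0.08, adjusted p = 1.6e-05). XM_001236333.2 (19477 to 133895) had a change of -0.24 (adjusted p = 0.027), and the call ended on leaving out CAP-H off replicate 1 (adjusted p = 0.24), CAP-H on replicate 1 (0.077) or CAP-H on replicate 2 (0.10), and by DESeq2 (0.062). UBE2R2L, the W partner of UBE2R2 on Z, had a change of 0.08 (adjusted p = 0.50), while UBE2R2, an enzyme that passes ubiquitin to targets, fell by 0.32 (adjusted p = 0.0035), or by 0.25 without CAP-H off replicate 1, where it was not called (adjusted p = 0.064). XM_003642894.1 had a change of -0.07 (adjusted p = 0.54). ST8SIA3L had 3 counts in each CAP-H off library and 1 in each CAP-H on library and was not tested. Falls on W were therefore uneven between its features.

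**Figure D5:**
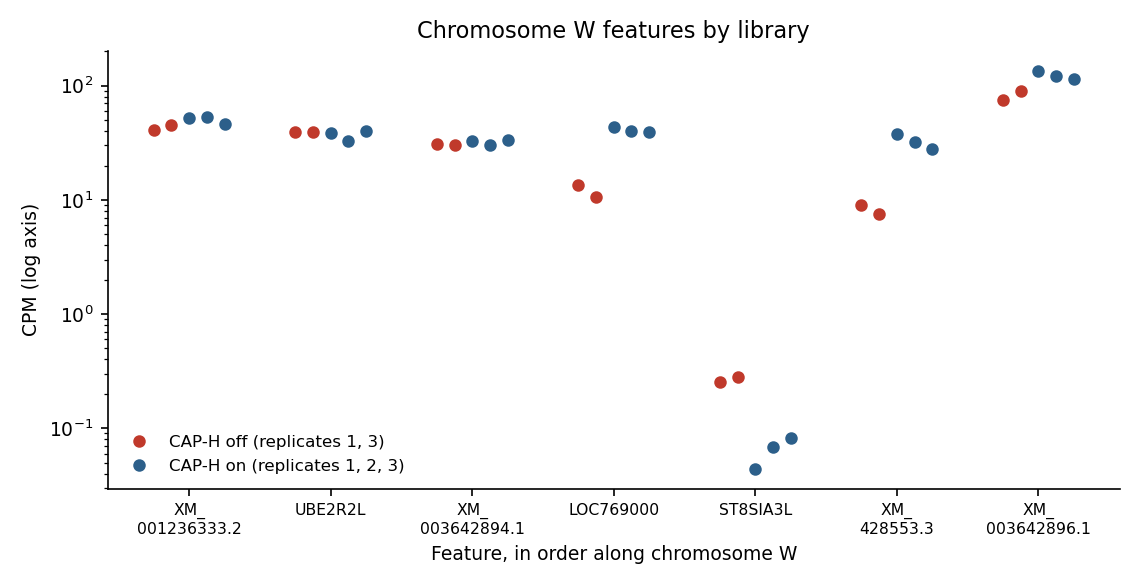
Level (CPM, log axis) of the 7 chromosome W features in order along the chromosome, with CAP-H off libraries (red, replicates 1 and 3) left of CAP-H on libraries (blue, replicates 1, 2 and 3). LOC769000 and XM_428553.3 stand at 7.47 to 13.6 CPM in CAP-H off and 27.7 to 43.1 CPM in CAP-H on libraries, while UBE2R2L and XM_003642894.1 overlap between groups.

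The authors' deposited table of their own comparison lists 3798 transcripts, of which 187 (4.92%) lie on Z, close to the 5.08% of all entries that Z holds. There, 61 Z transcripts have a positive and 126 a negative log2 fold change, a larger share of negative values than the 91 rises and 118 falls counted here, and the table as a whole has 1303 positive and 2495 negative. The listed Z transcripts correspond to 178 features, of which 173 were tested here. All 173 had the same sign here as in the authors' deposited table, and 164 of them were called here too. That table lists only transcripts with an adjusted p of up to 0.05 in a comparison of the same 2 groups. Like signs therefore follow largely from the selection and are no independent check. For the same reason, the share of listed transcripts on Z is one of called transcripts, set beside all entries.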

How the data were processed

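The authors deposited whole-number counts per RefSeq transcript and interval in 5 libraries, and a table of their comparison that gives log2 fold changes, log2 mean CPM, a likelihood ratio score (not used) and p-values, per the file headers. Per the submitters' processing notes, the build was galGal4 and the tools included edgeR 3.2.3, FastQC, Bowtie and TopHat2 2.0.8b, with no roles given. The sources used here name no counter, strand setting or filter. Header names stand 1 column off, and columns were read by position. A read can count for each feature it overlaps, and 93 Z features (11.4%) overlap another. Symbols came from a RefSeq table of assembly GRCg7b by accession without version (8905 of 17036 entries), and 515 of the 516 named Z features lie on Z there.

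Counts were tested with edgeR 4.0.16 (R 4.3.3, filterByExpr, TMM factors of 0.928 and 0.927 in CAP-H off and 1.07, 1.04 and 1.04 in CAP-H on libraries, glmQLFit, glmQLFTest, no covariates, Benjamini-Hochberg adjustment, threshold 0.05), and the scripts were tested on simulated data. Levels are edgeR CPM. Named genes are the 10 largest rises and 10 largest falls with a symbol, at least 5 CPM and groups apart, the 5 highest per kb, the 3 longest, up to 3 per list, features within 0.5 Mb of DMRT1 and all W features. Some genes that this rule or the lists hold are not reported here. Features outside this rule were named after their values were seen. Members and the 10 lists were chosen with earlier results of these data known. Promoter sequences were not analysed here. Alternatives were library size alone, DESeq2 1.42.0, other filters, no overlapping features, all entries, a replicate block (replicates 1 and 3 only) and leaving out each library.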

Additional observations from a re-analysis of the deposited data

How the results depend on the processing

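With library size alone, 58 Z features were called higher and 211 lower and their median log2 fold change was -0.21. Calls were 88 higher and 102 lower with DESeq2, 91 and 118 without a filter, 91 and 120 with at least 1 CPM in every library of 1 group, 81 and 100 without overlapping features, and 96 and 124 with every entry. Leaving out each library gave 80 to 94 higher and 92 to 111 lower, a median of -0.043 to -0.0058, a difference from autosomes of -0.043 to -0.013, and 3 to 4 W features lower. The Z to autosome ratio was 0.72 in CAP-H off and 0.66 in CAP-H on libraries without division by span, and 0.53 in CAP-H off and 0.47 in CAP-H on libraries without overlapping features, where the Z share of counts was 2.96% in CAP-H on libraries. Outside the 10 features with the most counts over all libraries together, that share was 3.03% in CAP-H off and 3.09% in CAP-H on libraries. This choice was added after seeing the data, like the comparison within span classes and the alternatives for W and lists. The cause of these shifts was not tested. Deviations from the group means correlated at -0.011 and -0.029 between libraries of the same replicate number. The deviations of 2 CAP-H off libraries mirror each other, so these values cannot decide whether the replicate numbers pair the libraries. A replicate block, fitted without CAP-H on replicate 2, gave 82 higher and 102 lower. Leaving out that library without a block gave 84 higher and 106 lower. Among named features 3 changed sign, none of them called in either setting: UBE2R2L was -0.10 with library size alone, KDM4C ranged from -0.337 to 0.0749 and XM_003642916.1 from -1.325 to 1.193 over the fits that left out a library. MIR2131 (-0.30, adjusted p = 0.035) lost its call with DESeq2, the block and each library left out. Depth limits features of few counts: 175 Z features had no read in any library, which does not show that they are silent.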
